A study of Bos indicus x Bos taurus with 11 samples.

Results

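Mitosis and chromosome segregation in fibroblasts of large offspring syndrome (LOS) fetuses were followed through 52 genes, taken by symbol from the 27398 genes and loci of the total RNA table. They code for mitotic cyclins and kinases, the spindle checkpoint and anaphase machinery, the chromosomal passenger complex, the kinetochore, mitotic kinesins, spindle assembly factors, cytokinesis proteins, condensin and the proliferation mark Ki-67. All 52 genes were found and all 52 passed the filter on low counts, so that none was left out of the tests. Allelic reads were listed for 32 of them, and counts split between the parental alleles for 10 of them.

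The samples were primary skin fibroblast cultures of 11 bovine fetuses of gestation day 105, each sequenced as 1 library of total RNA after removal of ribosomal RNA. The 6 LOS fetuses came from assisted reproduction and weighed more than the 97th centile of the controls. The 5 control fetuses, labelled CON_B, came from artificial insemination. LOS 1 to LOS 3, CON_B 1 and CON_B 2 were female, and LOS 4 to LOS 6 and CON_B 3 to CON_B 5 were male. Each fetus was a first-generation (F1) cross between the Brahman breed, of subspecies Bos taurus indicus, and the Angus breed, of subspecies Bos taurus taurus, with no transgene or other genetic change named in the labels. Conception by assisted reproduction and high body weight came together in the LOS group and cannot be told apart here. The cells were grown in culture with serum, and neither passage number nor cell density at harvest is given in the sources used here.

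When a cell divides, cyclin B and the kinase CDK1 drive it into mitosis, condensin and topoisomerase II compact the chromosomes, and kinetochores built on centromeric chromatin attach them to the spindle. The spindle checkpoint holds back the anaphase-promoting complex until every kinetochore is attached. Separase then cuts the cohesin rings that join sister chromatids, kinesins and cross-linkers build the central spindle, and a contractile ring divides the cytoplasm. Transcripts of these genes accumulate late in the cell cycle and are scarce in resting cells, so in cultured fibroblasts they are commonly read as a mark of how many cells divide. The roles given below are those known from human and other mammalian cells.

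Total counts ran from 12084822 to 19297167 in the LOS libraries and from 14147031 to 19272354 in the control libraries. Levels are given as CPM, counts scaled to library size by trimmed mean of M values (TMM) factors. The 14 fibroblast markers tested, which include collagen, lumican and vimentin genes, summed to between 59691 and 73832 CPM in LOS and between 61288 and 71213 CPM in controls. Of 7 leukocyte and 6 muscle markers, only LYZ and CHRNA1 passed the filter on low counts. Their levels were at most 0.871 and 1.07 CPM in LOS, and at most 0.790 and 1.13 CPM in controls. Of 8 keratinocyte markers, KRT5, KRT17 and CDH1 passed. They summed to between 0.0529 and 21.7 CPM in LOS and between 1.78 and 9.44 CPM in controls. The highest value was in LOS 1. Of 7 endothelial markers, TEK and ERG passed. Together they had between 5.28 and 9.97 CPM in LOS and between 3.21 and 14.7 CPM in controls. Of 8 melanocyte and Schwann cell markers, 4 passed. Their sum was between 59.0 and 141 CPM in LOS and between 49.7 and 339 CPM in controls.

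Most of the 52 genes had lower mean levels in LOS than in control fibroblasts, but none passed the test. The log2 fold change, taken as LOS minus control with sex in the model, was below 0 for 50 of the 52 genes, against 50.2% of the 16946 genes tested. Its median was -0.38 over the 52 genes and -0.00070 over all genes tested. The 52 genes moved together from library to library, as described below, so the 50 are not separate results. No gene of the table was called at an adjusted p under 0.05 (percent called 0, edgeR quasi-likelihood test), and the smallest adjusted p among the 52 genes was 0.932. At an unadjusted p under 0.05, 1 of the 52 genes stood apart, against 4.44% of all genes tested. It was lower in LOS, as were 1.95% of all genes at that threshold, and DESeq2 found 1 of the 52, against 2.45% of all genes lower at it. The same count was 2 under limma voom, against 2.55%. It was 7 with the replicate number as a block, against 2.02%, though the numbers do not pair the fetuses. That block fit draws its group effect only from numbers shared by a LOS and a control fetus of the same sex. CON_B 3 and LOS 3 differ in sex and do not enter it, so the 7 genes are no check on all libraries. For none of the 52 genes were all LOS libraries below all controls, against 0.136% of all genes tested. In bulk RNA, fewer dividing cells and less of these transcripts in each dividing cell cannot be told apart. The fetuses were separate animals, so the tests measure the spread between animals and their cultures together.

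**Figure D1:**
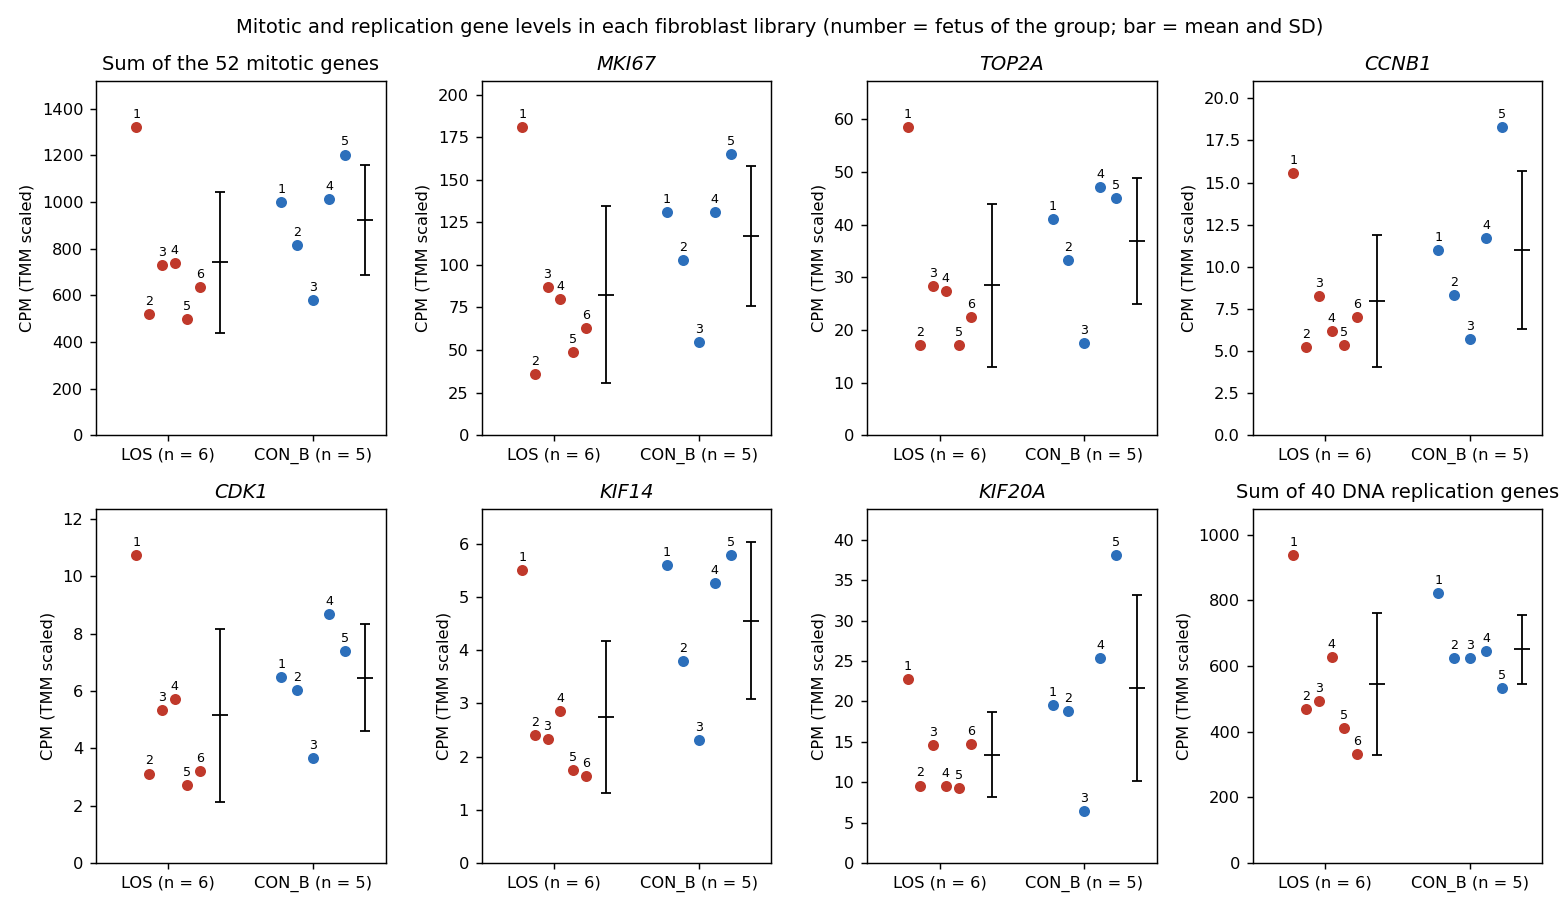
Level of the summed 52 genes, of 6 single genes and of 40 summed DNA replication genes in each library (y axis, CPM scaled by TMM factors; x axis, group; points numbered by fetus; bars, mean and SD). LOS 1 is the highest LOS library in every panel, while CON_B 3 is the lowest control in the 7 mitotic panels and near CON_B 2 in the replication panel.

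The 52 genes together made up 1320.1, 520.4, 729, 740.0, 499 and 635 CPM in LOS 1 to LOS 6, against 998, 815, 580.1, 1014 and 1203 CPM in CON_B 1 to CON_B 5. The means were 741 ± 301 CPM in LOS (SD, n = 6) and 922 ± 235 CPM in controls (SD, n = 5), and the groups overlapped through 1 library of each. LOS 1 was above all controls and CON_B 3 was below 4 of the 6 LOS libraries. As a share of all counts the genes made up 0.133% in LOS 1 and between 0.0484% and 0.0739% in the other LOS libraries, against 0.0561% in CON_B 3 and between 0.0856% and 0.117% in the other controls. LOS 1 was the shallowest library and held the highest keratinocyte marker sum, given above. Nearly all of that sum was CDH1, at 21.2 CPM, while the keratin genes KRT5 and KRT17 had 0 and 0.574 CPM in LOS 1. In LOS 2 the same keratin genes had 1.96 and 3.99 CPM. The part of depth or of other cells in its mitotic levels was not tested.

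Both libraries stood apart gene by gene. LOS 1 was the highest LOS library for 50 of the 52 genes, against 23.4% of all genes tested, and the highest of all 11 libraries for 37. It was above the control median for all 52. CON_B 3 was the lowest control for 49 of the 52 genes, against 23.3% of all genes tested. Set against the mean of the other LOS libraries, LOS 1 was 2.17-fold higher in the median gene, with a range from 1.21-fold for CENPM to 3.17-fold for KIF15. CON_B 3 stood at 0.530 of the mean of the other controls in the median gene, with a range from 0.186 for CCNB2 to 0.921 for ANLN. LOS 5 was the lowest LOS library for 29 genes and LOS 2 for 14, and CON_B 5 was the highest control for 33.

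**Figure D2:**
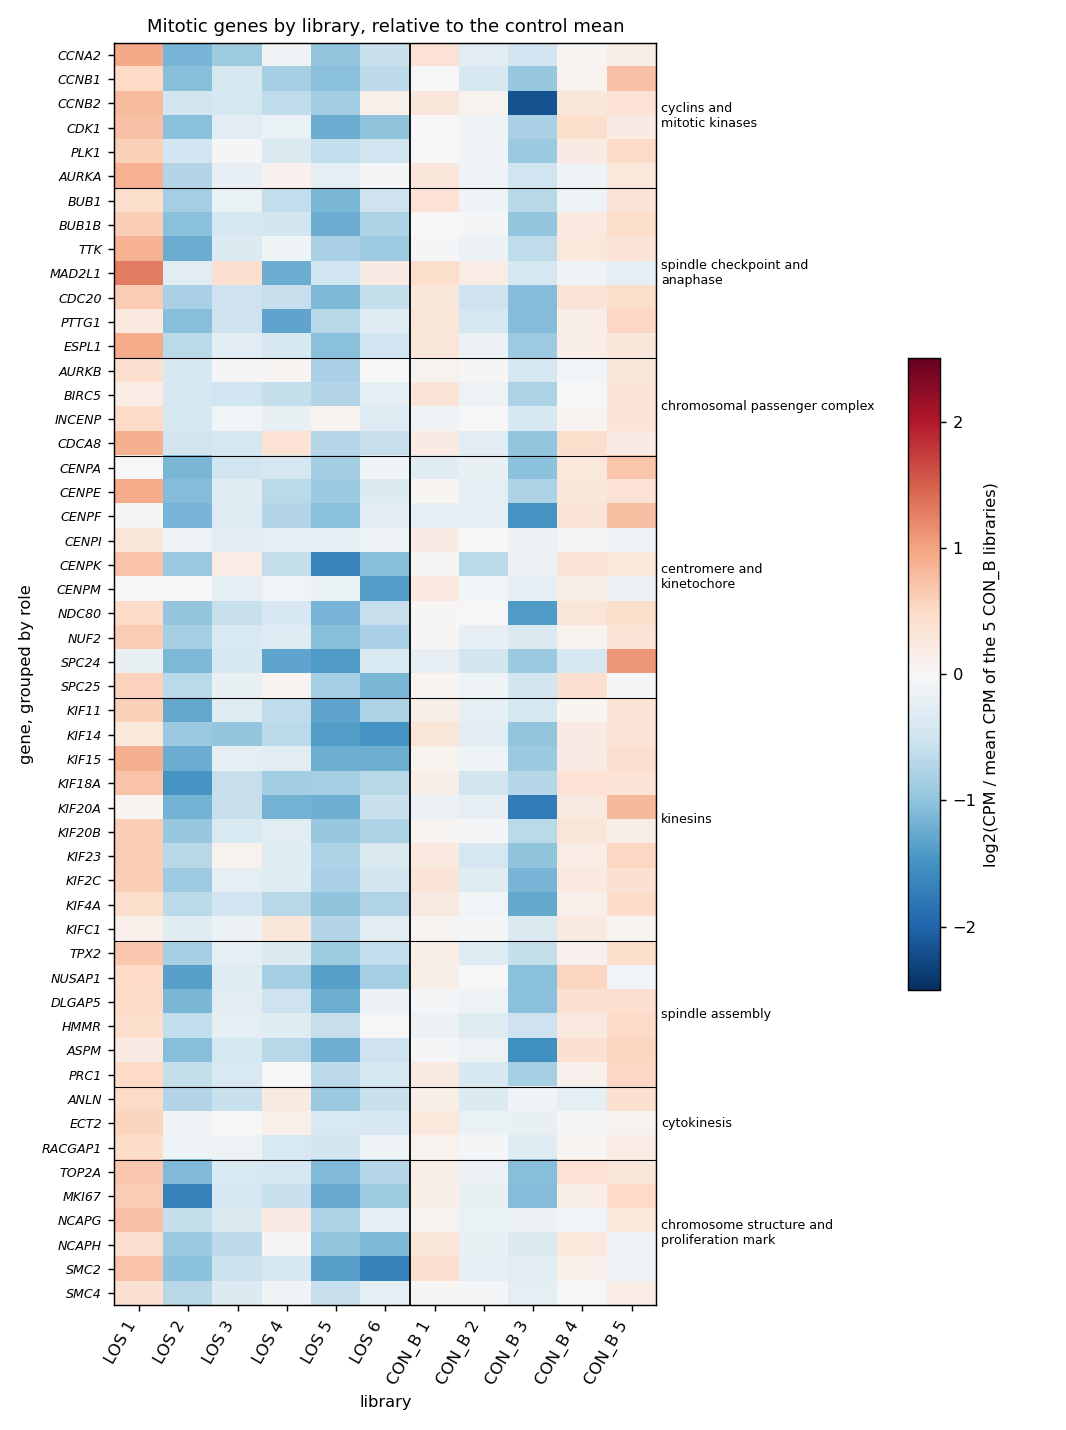
Level of each of the 52 genes in each library (columns, LOS left and CON_B right; rows, genes by role) as log2 of the CPM over the mean of the 5 controls, from blue for lower to red for higher. LOS 1 is the one LOS column that is red nearly throughout, and CON_B 3 is the control column with the deepest blue in most rows.

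The comparison moved with which fetuses were included. Without LOS 1, all 52 genes had a log2 fold change below 0 with a median of -0.62, and 26 of them had an unadjusted p under 0.05, against 5.49% of all genes then lower at that threshold. None was called, and the smallest adjusted p was 0.345, for KIF11, KIF14 and SMC2 (edgeR quasi-likelihood test). Without CON_B 3, 51 genes were lower, the median was -0.47, and 9 had an unadjusted p under 0.05, against 2.79% of all genes. LOS 1 lay above the mean of the other LOS libraries in all 52 genes, and CON_B 3 below that of the other controls. Leaving out either library therefore lowers LOS against control by construction. The genes move together between libraries, so the counts of 26 and 9 are not separate results. Without CON_B 5, 46 genes were lower, the median was -0.24, and none had an unadjusted p under 0.05. Without LOS 5, 46 genes were likewise lower and the median was -0.26. In the other fits that leave out 1 library, 2 genes had an unadjusted p under 0.05 without CON_B 2 (2.86% of all genes lower at it), 2 without LOS 4 (1.99%), and otherwise 0. No gene of the 52 was called in any of the 11 fits that leave out 1 library.

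**Figure D3:**
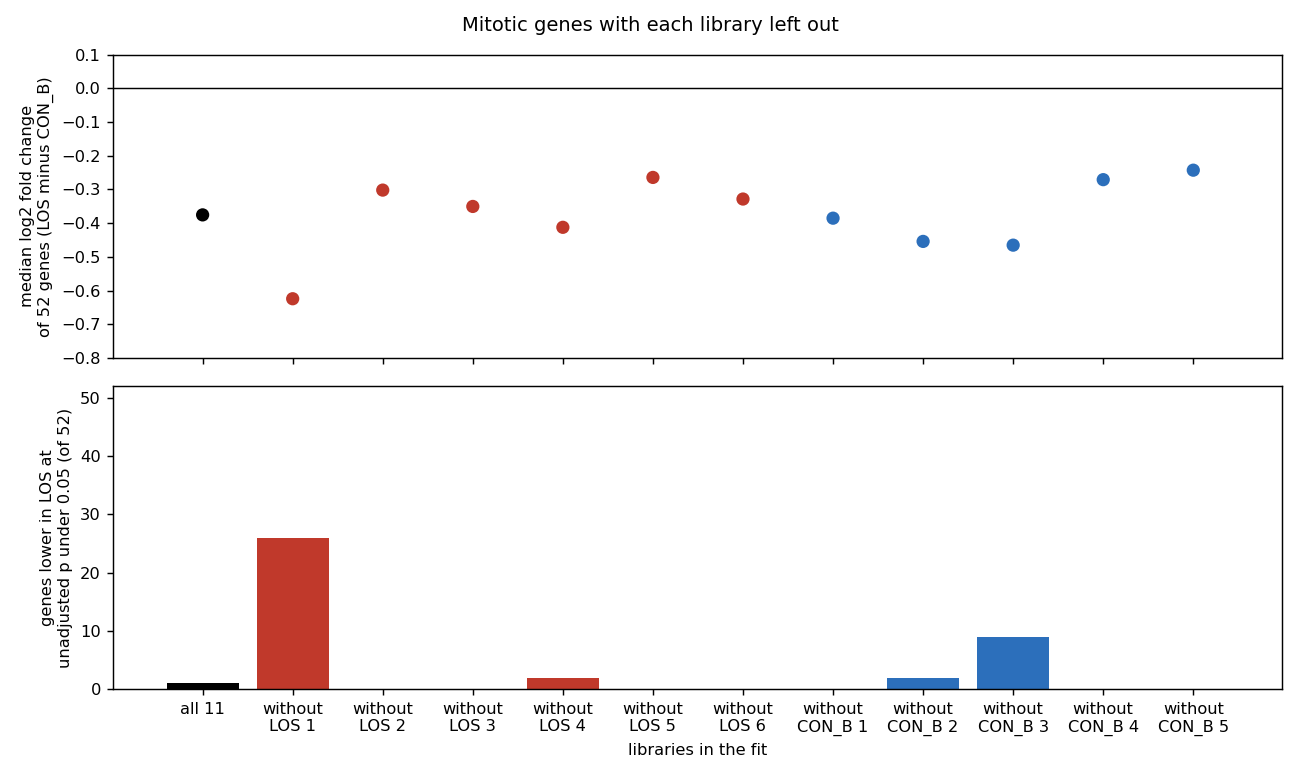
Median log2 fold change of the 52 genes (upper panel, LOS minus CON_B) and number of the genes lower in LOS at an unadjusted p under 0.05 (lower panel) in the fit of all 11 libraries and in the 11 fits that leave out 1 library each (x axis; black, all libraries; red, a LOS library left out; blue, a CON_B library left out). The median stays below 0 throughout, between -0.62 and -0.24, and the count runs from 0 to 26, its highest value without LOS 1. That library lay above the mean of the other LOS libraries in all 52 genes.

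The cyclins and mitotic kinases included 5 genes below 0 and 1 above, with a median of -0.27. CCNB1, which codes for cyclin B1 and lies at chr20:10507985-10517659, minus strand of build ARS-UCD1.2, had 15.6, 5.23, 8.29, 6.16, 5.36 and 7.03 CPM in LOS 1 to LOS 6, against 11.01, 8.30, 5.71, 11.7 and 18.3 CPM in CON_B 1 to CON_B 5. CON_B 5 held the highest level and LOS 1 the next, and the other 5 LOS libraries lay no higher than CON_B 2. Its means were 7.95 ± 3.92 CPM in LOS (SD, n = 6) and 11 ± 4.71 CPM in controls (SD, n = 5), with a log2 fold change of -0.52 ± 0.35 (adjusted p = 0.932, edgeR quasi-likelihood test).

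CDK1, the kinase that cyclin B activates (chr28:16488138-16538776, plus strand), had 10.8, 3.12, 5.35, 5.72, 2.72 and 3.22 CPM in LOS 1 to LOS 6, against 6.48, 6.02, 3.67, 8.70 and 7.41 CPM in CON_B 1 to CON_B 5. LOS 1 was above every control, and 3 LOS libraries were below every control. The log2 fold change was -0.41 ± 0.36. PLK1, a kinase needed for centrosome maturation and mitotic entry, averaged 9.89 ± 3.60 CPM in LOS (SD, n = 6) and 11.1 ± 3.53 CPM in controls (SD, n = 5), with a log2 fold change of -0.23 ± 0.27. CCNA2 and CCNB2, which code for cyclins A2 and B2, had -0.30 ± 0.36 and -0.18 ± 0.41. CCNB2 had 0.883 CPM in CON_B 3 against at least 4.25 CPM in the other controls. AURKA, the kinase of the spindle poles, averaged 5.84 ± 2.38 CPM in LOS (SD, n = 6) and 5.66 ± 1.196 CPM in controls (SD, n = 5), and its log2 fold change of 0.024 ± 0.26 was -0.21 without LOS 1.

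Among the 7 genes of the spindle checkpoint and anaphase, 6 were below 0, with a median of -0.45. BUB1, a checkpoint kinase at kinetochores, had a lowest, median and highest level of 5.52, 8.24 and 16.5 CPM in the LOS libraries, against 15.6, 11.3, 7.54, 11.1 and 15.5 CPM in CON_B 1 to CON_B 5. The LOS median lay below 4 of the 5 controls, while LOS 1 lay above them all. The log2 fold change was -0.46 ± 0.26. BUB1B, which codes for the checkpoint protein BubR1, averaged 8.51 ± 4.55 CPM in LOS (SD, n = 6) and 11.4 ± 3.62 CPM in controls (SD, n = 5), with a log2 fold change of -0.49 ± 0.34. PTTG1, which codes for securin, the inhibitor of separase, averaged 1.79 ± 0.716 CPM in LOS (SD, n = 6) and 2.58 ± 0.990 CPM in controls (SD, n = 5), with a log2 fold change of -0.55 ± 0.34. CDC20, the activator of the anaphase-promoting complex, stood at -0.45 ± 0.35, separase (ESPL1) at -0.28 ± 0.32 and the checkpoint kinase TTK at -0.31 ± 0.36.

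MAD2L1, whose product holds CDC20 inactive until the checkpoint is satisfied, had a value on the other side of 0. It lies on an unplaced scaffold of the assembly, and it had 13.6, 4.65, 7.46, 2.35, 3.93 and 6.40 CPM in LOS 1 to LOS 6, against 7.50, 6.27, 4.08, 5.21 and 4.66 CPM in CON_B 1 to CON_B 5. LOS 1 held the highest level of the 11 libraries and LOS 4 the lowest. Its log2 fold change of 0.071 ± 0.31 was the highest of the 52 genes and was -0.15 without LOS 1.

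The 4 genes of the chromosomal passenger complex, which corrects faulty attachments and later guides cytokinesis, had the median nearest to 0 of the roles, at -0.080. BIRC5, which codes for survivin, averaged 4.51 ± 1.11 CPM in LOS (SD, n = 6) and 5.75 ± 1.60 CPM in controls (SD, n = 5), with a log2 fold change of -0.37 ± 0.22. AURKB, the kinase of the complex, averaged 9.61 ± 2.66 CPM in LOS (SD, n = 6) and 10.2 ± 1.78 CPM in controls (SD, n = 5), with a log2 fold change of -0.10 ± 0.20. INCENP, its scaffold, averaged 16.6 ± 3.95 CPM in LOS (SD, n = 6) and 17.02 ± 3.10 CPM in controls (SD, n = 5), with -0.049 ± 0.18. CDCA8, which codes for borealin, had -0.060 ± 0.35. The values of AURKB, INCENP and CDCA8 were smaller than their standard errors, and each turned above 0 with some single library left out.

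All 10 centromere and kinetochore genes were below 0, with a median of -0.41. SPC24, a subunit of the NDC80 complex that binds spindle microtubules, had 5.17, 2.69, 4.45, 2.35, 2.19 and 4.49 CPM in LOS 1 to LOS 6, against 5.07, 4.25, 3.06, 4.38 and 12.5 CPM in CON_B 1 to CON_B 5. Its log2 fold change of -0.71 ± 0.40 leaned on CON_B 5, the highest library, and was -0.24 without it. NUF2, of the same complex, had a lowest, median and highest level of 3.63, 5.07 and 11.8 CPM in the LOS libraries, against 7.77, 6.52, 5.91, 8.02 and 9.60 CPM in CON_B 1 to CON_B 5, and 4 of the 6 LOS libraries lay below every control (log2 fold change -0.41 ± 0.29). NDC80 itself stood at -0.48 ± 0.35 and SPC25 at -0.31 ± 0.30.

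CENPF, a large protein of the outer kinetochore, had 50.3, 21.9, 39.1, 29.5, 23.8 and 40.5 CPM in LOS 1 to LOS 6, against 42.3, 42.02, 17.7, 61.03 and 82.6 CPM in CON_B 1 to CON_B 5. Controls spread more widely than LOS libraries, from CON_B 3 at the bottom of all 11 to CON_B 5 at the top. The log2 fold change was -0.52 ± 0.35, and -0.26 without CON_B 5. CENPA, the histone H3 variant that marks the centromere, had -0.42 ± 0.30, and CENPE, the kinetochore motor, -0.31 ± 0.35. Of the inner kinetochore genes, CENPK had -0.47 ± 0.41 and CENPM -0.28 ± 0.21. CENPI, on chromosome X (chrX:50994225-51062452, minus strand), averaged 10.3 ± 1.69 CPM in LOS (SD, n = 6) and 11.01 ± 1.03 CPM in controls (SD, n = 5), with a log2 fold change of -0.12 ± 0.12.

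All 10 kinesins were below 0, and their median of -0.47 was the lowest of the roles. KIF14, a kinesin of late mitosis and cytokinesis (chr16:79236372-79285002, minus strand), had 5.50, 2.40, 2.34, 2.86, 1.74 and 1.64 CPM in LOS 1 to LOS 6, against 5.61, 3.80, 2.31, 5.26 and 5.79 CPM in CON_B 1 to CON_B 5. LOS 2 to LOS 6 lay between 1.64 and 2.86 CPM, all below 4 of the 5 controls, and LOS 1 lay among those 4. Its means were 2.74 ± 1.42 CPM in LOS (SD, n = 6) and 4.55 ± 1.48 CPM in controls (SD, n = 5). The log2 fold change of -0.82 ± 0.33 was the lowest of the 52 genes and the only one with an unadjusted p under 0.05 in the fit of all libraries (adjusted p = 0.932, edgeR quasi-likelihood test). It ran from -1.06 without LOS 1 to -0.67 without CON_B 5.

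KIF20A, which moves the passenger complex to the central spindle (chr7:49613158-49621659, plus strand), had 22.7, 9.58, 14.5, 9.54, 9.29 and 14.7 CPM in LOS 1 to LOS 6, against 19.6, 18.8, 6.45, 25.3 and 38.1 CPM in CON_B 1 to CON_B 5. The lowest and the highest of all 11 levels were both in controls, CON_B 3 and CON_B 5, and the log2 fold change was -0.72 ± 0.39. KIF11, the motor that pushes the spindle poles apart, had a lowest, median and highest level of 7.03, 10.7 and 26.3 CPM in the LOS libraries, against 19.3, 15.1, 12.9, 18 and 22.2 CPM in CON_B 1 to CON_B 5. Of the LOS libraries, 4 lay below every control, and the log2 fold change was -0.55 ± 0.31. KIF4A, a chromosome-bound kinesin on chromosome X (chrX:80023162-80153421, minus strand), averaged 7.53 ± 3.23 CPM in LOS (SD, n = 6) and 10.2 ± 3.69 CPM in controls (SD, n = 5), with a log2 fold change of -0.52 ± 0.30. The microtubule-depolymerising KIF2C had -0.30 ± 0.33, KIF18A, which aligns chromosomes, -0.50 ± 0.38, KIF23, of the central spindle, -0.21 ± 0.31, and KIF15, which backs up KIF11, -0.44 ± 0.40. KIF20B stood at -0.39 ± 0.29 and the minus-end motor KIFC1 at -0.15 ± 0.18.

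The 6 spindle assembly genes were all below 0, with a median of -0.35. TPX2, which activates AURKA on the spindle, had 78.3, 27.7, 41.3, 38.7, 26.4 and 32.04 CPM in LOS 1 to LOS 6, against 54.1, 39.1, 32.6, 52.6 and 66.8 CPM in CON_B 1 to CON_B 5. Its means were 40.8 ± 19.3 CPM in LOS (SD, n = 6) and 49.03 ± 13.4 CPM in controls (SD, n = 5), with a log2 fold change of -0.33 ± 0.29. ASPM, a spindle pole protein, averaged 29.9 ± 11.2 CPM in LOS (SD, n = 6) and 43.7 ± 18.7 CPM in controls (SD, n = 5), with a log2 fold change of -0.58 ± 0.35. NUSAP1, which bundles microtubules near chromosomes, averaged 5.58 ± 3.15 CPM in LOS (SD, n = 6) and 8.14 ± 2.85 CPM in controls (SD, n = 5), with -0.65 ± 0.35, and this value is uncertain because NUSAP1 overlaps NDUFAF1 and OIP5 on the opposite strand. PRC1, the cross-linker of the central spindle, had -0.22 ± 0.27, DLGAP5 -0.38 ± 0.35 and HMMR -0.16 ± 0.24.

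The 3 cytokinesis genes were below 0 with a median of -0.13, next to the passenger complex in nearness to 0. ANLN, which codes for anillin of the contractile ring, had 126, 54.7, 61.7, 105, 47.5 and 61.96 CPM in LOS 1 to LOS 6, against 99.7, 71.8, 84.8, 76.4 and 120.2 CPM in CON_B 1 to CON_B 5. Among controls CON_B 3 lay between CON_B 4 and CON_B 1, whereas it was the lowest control for 49 of the 52 genes. LOS 4 came next to LOS 1, as it did for CCNA2, CDK1 and SMC2 among others. Its log2 fold change was -0.26 ± 0.27. RACGAP1, of the centralspindlin complex, averaged 50.7 ± 12.3 CPM in LOS (SD, n = 6) and 54.2 ± 6.93 CPM in controls (SD, n = 5), with -0.13 ± 0.15, and ECT2, the activator of RhoA at the cleavage site, averaged 19.2 ± 5.10 CPM in LOS (SD, n = 6) and 19.2 ± 2.58 CPM in controls (SD, n = 5), with -0.039 ± 0.16.

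The 6 genes of chromosome structure and the proliferation mark were all below 0, with a median of -0.45. MKI67, which codes for Ki-67, the antigen used to stain cycling cells (chr26:47507658-47537765, minus strand), had 181, 36.1, 87.1, 79.7, 48.7 and 62.96 CPM in LOS 1 to LOS 6, against 131, 103, 54.96, 131 and 165 CPM in CON_B 1 to CON_B 5. LOS 1 was the highest of the 11, LOS 2 the lowest, and 5 of the 6 LOS libraries were below 4 of the 5 controls. Its means were 82.6 ± 51.7 CPM in LOS (SD, n = 6) and 117 ± 41.2 CPM in controls (SD, n = 5), with a log2 fold change of -0.58 ± 0.39 (adjusted p = 0.932, edgeR quasi-likelihood test), and -0.90 without LOS 1.

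TOP2A, topoisomerase II alpha, which untangles replicated DNA (chr19:40627035-40653390, minus strand), had 58.5, 17.1, 28.3, 27.4, 17.1 and 22.4 CPM in LOS 1 to LOS 6, against 41, 33.3, 17.6, 47.2 and 45.1 CPM in CON_B 1 to CON_B 5. LOS 1 was again above every control and CON_B 3 level with the lowest LOS libraries. The log2 fold change was -0.44 ± 0.34. SMC2, a core subunit of condensin (chr8:93705340-93755402, plus strand), had 45.96, 13.9, 19.2, 21.2, 10.96 and 8.67 CPM in LOS 1 to LOS 6, against 36.8, 24.1, 23.2, 30.5 and 25.6 CPM in CON_B 1 to CON_B 5. LOS 2 to LOS 6 were all below every control, more LOS libraries than for any other of the 52 genes, and LOS 1 was above every control, with a log2 fold change of -0.63 ± 0.34. The condensin subunit genes NCAPH, SMC4 and NCAPG had -0.45 ± 0.29, -0.23 ± 0.18 and -0.10 ± 0.26. NCAPG overlaps DCAF16 and LCORL on the opposite strand, and each of these has more counts than NCAPG itself, so its value is uncertain.

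**Figure D4:**
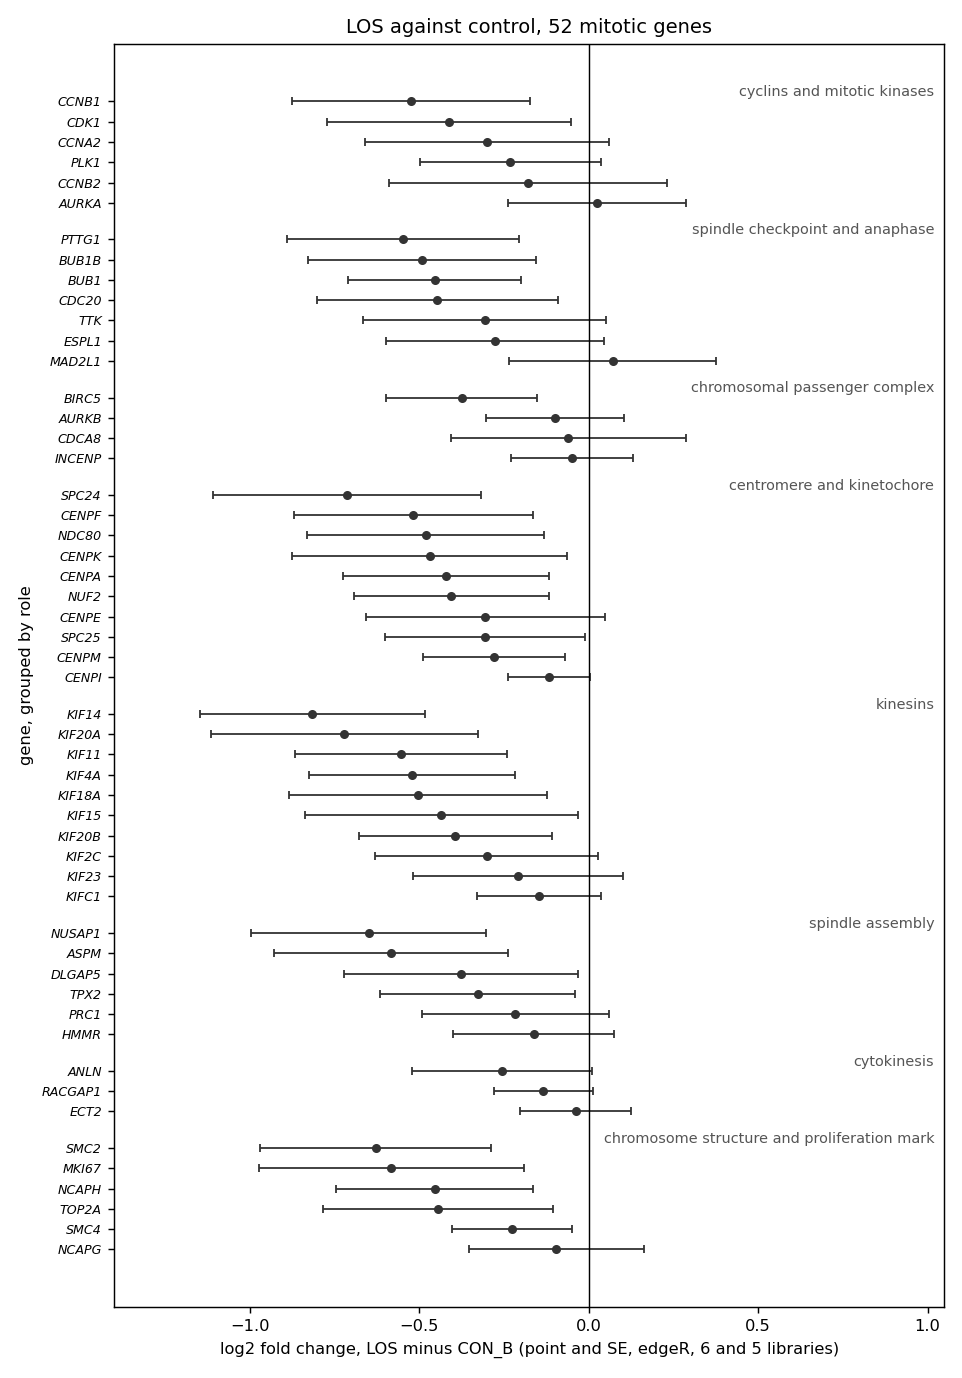
Log2 fold change (x axis, LOS minus CON_B, point and standard error, edgeR with sex in the model, 6 and 5 libraries) of each of the 52 genes (y axis, grouped by role). All but AURKA and MAD2L1 lie below 0, KIF14 lies lowest at -0.82 ± 0.33, and the passenger complex and cytokinesis genes have the medians nearest to 0.

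The distance of CON_B 3 from the other controls differed in size between the roles, while LOS 1 was high in all of them. In the median gene CON_B 3 stood at 0.459 of the mean of the other controls for kinesins, 0.466 for spindle assembly genes, 0.480 for checkpoint and anaphase genes and 0.491 for cyclins and kinases. It stood at 0.610 for kinetochore genes, 0.611 for the passenger complex, 0.767 for chromosome structure and 0.849 for cytokinesis. LOS 1 over the mean of the other LOS libraries ran from 1.58-fold in the median gene of the passenger complex to 2.56-fold in that of the checkpoint. These ratios describe 1 fetus each and have no replicate.

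The 52 genes moved together from library to library. Over the 11 libraries the Pearson correlation of log2 CPM between 2 of the genes had a median of 0.810 over 1326 pairs, and 1322 pairs were above 0. With each group's mean removed the median was 0.807. The pairs share their libraries and scaling, LOS 1 and CON_B 3 among them, so these values are a description. TOP2A (0.99) and BUB1B (0.99) were closest to the mean of the other genes. CENPM (0.32), MAD2L1 (0.55) and SPC24 (0.72) were farthest from it. CENPM had between 13.9 and 16.5 CPM in LOS 1 to LOS 5 and 6.24 CPM in LOS 6, against 14.1 to 19.3 CPM in controls. Outside the lists used here, the genes most like the mean of the 52 were IQGAP3 (0.970), SHCBP1 (0.957), PRR11 (0.949), PARPBP (0.929) and BRCA1 (0.926).

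Within each sex, no gene of the table was called (percent called 0 in females and 0 in males, edgeR quasi-likelihood test). Among male fetuses (n = 3 LOS and 3 controls), 51 of the 52 genes were below 0, against 50.4% of all genes, with a median of -0.62. CENPK, KIF11 and KIF14 were lower there at an unadjusted p under 0.05, 3 of the 52 against 3.29% of all genes, and the smallest adjusted p among the 52 genes was 0.819. Among female fetuses (n = 3 LOS and 2 controls), 32 were below 0, against 48.2% of all genes, with a median of -0.083 and a smallest adjusted p of 0.999. LOS 1 is one of these 3 females, and without it the female median was -0.56. It was -0.18 without CON_B 2 and above 0 without CON_B 1 (0.080), LOS 2 (0.21) or LOS 3 (0.051). The male median was -0.39 without CON_B 5. MKI67 had a log2 fold change of -0.21 in females and -0.88 in males, CCNB1 of 0.0068 in females and -0.94 in males and KIF20A of -0.30 in females and -1.05 in males.

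The difference between the sexes was tested by the group by sex interaction, the male minus the female effect. Its median over the 52 genes was -0.55, and no gene of the table was called (percent called 0, smallest adjusted p among the 52 genes 0.921, edgeR quasi-likelihood test). Without LOS 1 the median was -0.048, without CON_B 5 -0.28 and without CON_B 3 -0.83. CENPK, of the inner kinetochore, had the only unadjusted p under 0.05 of the 52, against 4.89% of all genes, with 0.42 in females and -1.19 in males. A count of 1 in 52 is no larger a share than that over all genes. CENPK also rested on few reads, from 7 counts in LOS 5 to 42 in CON_B 4, so its levels are uncertain. It had 1.10, 0.529 and 0.793 CPM in LOS males against 1.49, 2.06 and 1.98 CPM in control males, and 2.71, 0.871 and 1.88 CPM in LOS females against 1.69 and 1.04 CPM in control females. Male libraries were all lower in LOS, while the LOS female values lay on both sides of the control females.

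Between all males and all females, with group in the model, 3 of the 52 genes were higher in males, against 49.9% of all genes, with a median male minus female difference of -0.27. None of the 52 was called, against 8 genes of the table (percent called 0.0472, edgeR quasi-likelihood test). Without LOS 1 the median was 0.014. The X-linked genes KIF4A and CENPI had differences of -0.43 ± 0.30 and -0.17 ± 0.12. MAD2L1 had the largest difference, -0.81 ± 0.30, with 2.35 to 6.40 CPM in males and 4.65 to 13.6 CPM in females (adjusted p = 0.999, edgeR quasi-likelihood test).

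The table that splits total counts by allele holds the total count multiplied by each library's allelic share, so both alleles carry the same total and their likeness adds nothing to the result on total counts. In it, 10 of the genes had values, and each fetus had a Brahman and an Angus parent, so effects of parent and breed cannot be told apart here. On the maternal allele 9 of the 10 had a log2 fold change below 0, against 46.7% of all genes, with a median of -0.22. On the paternal allele all 10 did, against 44.6% of all genes, with a median of -0.20. No gene was called on either allele (percent called 0 for each, edgeR quasi-likelihood test). Maternal MKI67 had 89.4, 24.1, 46.8, 41.1, 19.5 and 29.7 CPM in LOS 1 to LOS 6, against 65.6, 56.96, 27.2, 70.97 and 81.5 CPM in CON_B 1 to CON_B 5. Paternal MKI67 had 91.4, 12.05, 40.4, 38.6, 29.2 and 33.3 CPM in LOS 1 to LOS 6, against 65.6, 45.99, 27.8, 60.1 and 83.8 CPM in CON_B 1 to CON_B 5. The MKI67 split rested on only 3 allelic reads in LOS 2 and 20 in LOS 5, so its values there are uncertain. LOS 1 was the highest LOS library on both alleles, and the log2 fold changes were -0.65 ± 0.37 and -0.52 ± 0.41. Over the 10 genes, LOS 1 was the highest LOS library for 8 on the maternal and 8 on the paternal allele, and CON_B 3 the lowest control for 7 and 9.

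The balance between the alleles was tested in 16 of the 52 genes, those whose allelic reads averaged at least 20 per library. No gene had a share called different between LOS and control (percent called 0 of 5700, edgeR quasi-likelihood test), and none of the 16 had an unadjusted p under 0.05. Over all libraries, 6 of the 16 genes leaned to the maternal allele, against 46.6% of all genes tested, and 2 of the 16 departed from equal alleles, against 20.5%. CENPM was more maternal, at 63.96% ± 2.22 in LOS (SD, n = 5) and 62.6% ± 5.77 in controls (SD, n = 5), from between 97 and 320 allelic reads in each library that had any. Its log2 ratio of maternal to paternal reads was 0.80 ± 0.10 (SE). It was above 55% in all 10 libraries. RACGAP1 was more paternal, with a maternal share of 45.4% ± 4.06 in LOS (SD, n = 6) and 42.01% ± 6.24 in controls (SD, n = 5) and a log2 ratio of -0.34 ± 0.11 (SE, adjusted p = 0.036, edgeR quasi-likelihood test). All 11 libraries were below 50%, from 40 to 127 reads each. RACGAP1 was no longer called when CON_B 1, CON_B 2, CON_B 4 or LOS 5 was left out. ECT2 stood at 50.3% ± 2.30 in LOS (SD, n = 6) and 50.2% ± 3.80 in controls (SD, n = 5), and MKI67 at 51.4% ± 8.84 in LOS (SD, n = 6) and 51.6% ± 2.86 in controls (SD, n = 5). The share of MKI67 in LOS 2 rested on 3 reads.

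Genes around the 52 in the same pathways were read from lists of other mitotic, replication and arrest genes, and none of them was called. The list of transcription control of mitotic genes, which holds both activators and repressors of them, had 13 of 17 genes below 0, with a median of -0.15. FOXM1, the main activator of late cell cycle genes, had 9.36, 2.32, 3.09, 4.70, 2.27 and 2.96 CPM in LOS 1 to LOS 6, against 6.96, 5.68, 2.72, 7.08 and 5.93 CPM in CON_B 1 to CON_B 5. The highest of the 11 libraries was LOS 1 and the lowest control CON_B 3, as in most of the 52 genes, while CON_B 5 was only the third highest control. FOXM1 had a log2 fold change of -0.53 ± 0.38. MYBL2, which acts with it, had -0.55 ± 0.32, LIN9, of the complex that holds MYBL2, -0.55 ± 0.24, and E2F2, an activator of S phase genes, -1.18 ± 0.53, at 0.661 ± 0.609 CPM in LOS (SD, n = 6) and 1.34 ± 0.502 CPM in controls (SD, n = 5).

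Other mitotic kinases and phosphatases had 14 of 16 genes below 0 (median -0.26), other kinetochore and checkpoint genes 25 of 29 (median -0.27) and other spindle and cytokinesis genes 26 of 29 (median -0.27). Examples are CDC25B, the phosphatase that activates CDK1 (-0.55 ± 0.26), CENPT, of the inner kinetochore (-0.71 ± 0.31), and SGO1, which protects centromeric cohesin (-0.58 ± 0.34). KIF22, a chromosome-arm kinesin, had -0.45 ± 0.26, and MAP9, a spindle-associated protein, -0.94 ± 0.41 at 1.41 ± 0.711 CPM in LOS (SD, n = 6) and 2.64 ± 0.770 CPM in controls (SD, n = 5). CDC14B, a phosphatase, stood on the other side at 0.23 ± 0.14. The anaphase-promoting complex and its ubiquitin carriers had 11 of 17 below 0 (median -0.013), and cohesin with the other condensin genes 12 of 17 (median -0.071). In those lists UBE2C, the ubiquitin carrier of the complex, had -0.51 ± 0.35, its subunit ANAPC7 -0.10 ± 0.068, the cohesin core SMC1A -0.20 ± 0.10 and the condensin II gene NCAPG2 -0.44 ± 0.29.

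Cell cycle inhibitors and arrest genes were the one list with a median above 0, at 0.17, with 13 of 21 genes above 0. GADD45A, a gene of the DNA damage response, averaged 41.8 ± 10.1 CPM in LOS (SD, n = 6) and 26.6 ± 6.50 CPM in controls (SD, n = 5), with a log2 fold change of 0.63 ± 0.21 (adjusted p = 0.932, edgeR quasi-likelihood test). CDKN1A, which codes for the CDK inhibitor p21, had 65, 109.5, 90.5, 85.8, 139.6 and 114 CPM in LOS 1 to LOS 6, against 72.2, 129, 52.5, 99.5 and 71.7 CPM in CON_B 1 to CON_B 5, with 0.24 ± 0.25. LOS 1 was the lowest LOS library and CON_B 3 the lowest control. CDKN2C, another CDK inhibitor, had -0.62 ± 0.26.

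DNA replication genes shared the high level of LOS 1 with the mitotic genes but not the low level of CON_B 3. All 40 were below 0, with a median of -0.34, and they summed to 938, 469.7, 492, 628, 409.9 and 331 CPM in LOS 1 to LOS 6, against 821, 624, 625, 647 and 534 CPM in CON_B 1 to CON_B 5. LOS 1 was the highest LOS library for 39 of the 40 genes. CON_B 3 was the lowest control for 1 of the 40, against 49 of the 52 mitotic genes, and its sum was level with that of CON_B 2 and above that of CON_B 5. CON_B 5, which was the highest control for mitotic genes, had the lowest control sum for replication genes. CDC45, of the replicative helicase, had 8.12, 4.79, 5.65, 4.33, 3.70 and 3.96 CPM in LOS 1 to LOS 6, against 8.31, 7.55, 5.64, 6.00 and 6.00 CPM in CON_B 1 to CON_B 5, with a log2 fold change of -0.47 ± 0.15. It was the 1 replication gene of the 40 with CON_B 3 as the lowest control. PRIM1, the catalytic subunit of primase, had -0.53 ± 0.20. These are single fetuses, and what sets the controls apart was not tested.

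**Figure D5:**
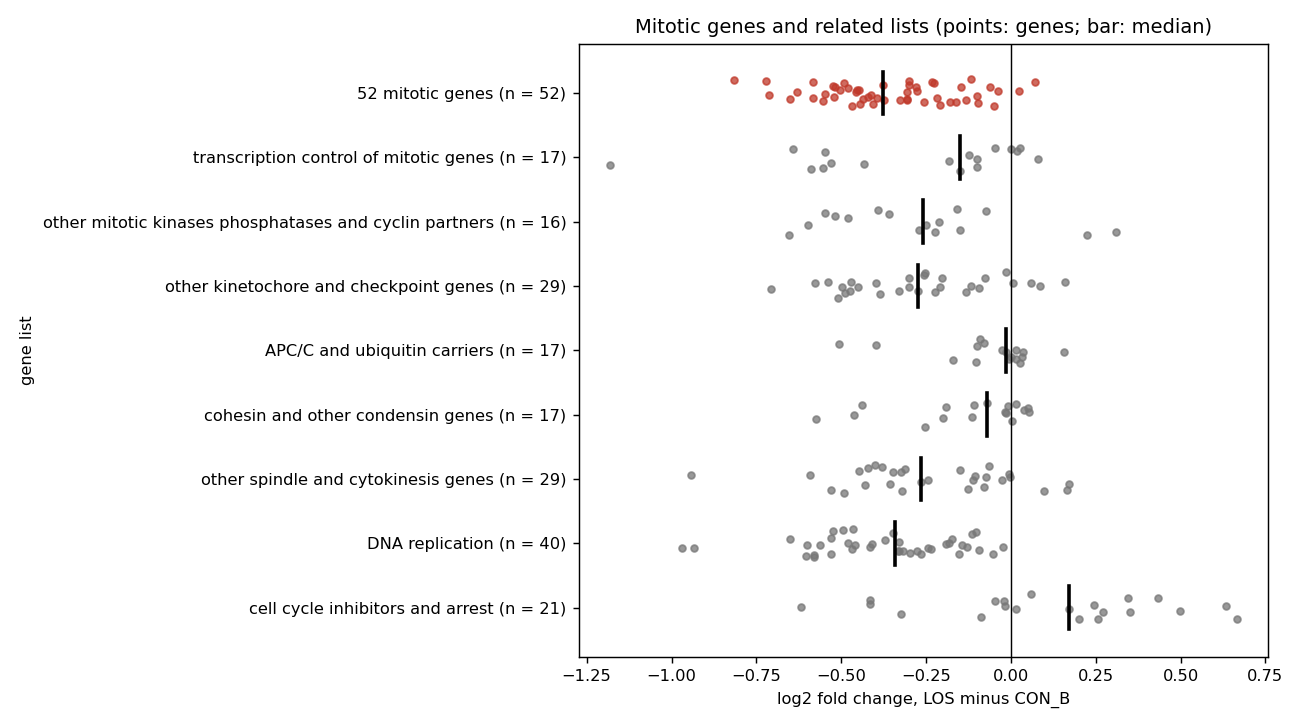
Log2 fold change (x axis, LOS minus CON_B) of each gene of the 52 (top row, red) and of 8 related lists (grey rows), with the median of each as a bar. The medians lie between -0.38 and -0.013 except that of the inhibitors and arrest genes, at 0.17, and no gene shown was called.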

How the data were processed

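The 52 genes and all lists were chosen with earlier results of these data known. Per the submitters' processing notes the tools were Cufflinks 2.2.1, edgeR 3.36.0, FastQC 0.11.7, GATK, HISAT2 2.1.0, Picard 2.22.4, Salmon 0.11.1, SAMtools 1.8 and StringTie 2.1.4, on build ARS-UCD1.2. What each did and how reads were counted, by strand or not, was not given in the sources used here. The authors deposited expected counts (estimated reads, not normalised) for 21862 annotated genes and 5536 assembled loci, of which 71.2% of values were exactly whole. They also deposited whole counts of maternal and paternal reads for 9716 genes, per the file headers, and expected counts multiplied by the allelic share for 4347 genes.

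Expected counts were rounded and fitted for all genes in R 4.3.3 with edgeR 4.0.16 (TMM, filterByExpr, quasi-likelihood test, group and sex as terms, Benjamini-Hochberg adjustment over 16946 genes, calls at an adjusted p under 0.05). Group within sex and the interaction came from 1 model of the 4 group and sex cells. Correlations used log2 of CPM plus 0.5. The allelic model had library, allele and allele by group, on autosomal genes averaging at least 20 allelic reads per library and having 10 or more in at least 3 libraries of each group. Expression of each allele used the TMM factors of the total counts.

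Named genes are the 3 of each role with the smallest p, MKI67, TOP2A, CCNB1, CDK1, KIF4A, CENPI, the 2 lowest and 2 highest fold changes, the 2 genes of each other list with the smallest p, FOXM1, MYBL2 and CDKN1A. Further genes are named to complete a role. Where genes overlap, their reads may not be told apart: 14 of the 52 genes overlap another gene or locus, 5 of them one with over 10% of their own counts (KIF20B, KIFC1, NUSAP1, PRC1 and NCAPG). The scripts were tested on simulated data.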

Additional observations from a re-analysis of the deposited data

Results flagged for a closer look

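For each of the 52 genes, and for their sum, the highest and lowest library of each group were compared with the rest of the group, which gave 106 group tests. In 28 of them the gap from 1 library to the nearest other, divided by the range of the group, was above Dixon's critical value at the 95% level, which chance passes in about 1 in 20 groups of normally distributed values. The genes share their libraries, so these are not separate events.

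LOS 1 was high in nearly all of them. The summed level of the 52 genes was 1320 CPM in LOS 1, against 499 to 740.0 CPM in the other LOS libraries. For single genes the CPM in LOS 1 and the highest CPM of the other 5 LOS libraries are given in brackets. Cyclin, kinase and checkpoint genes were CCNA2 (17.3, 8.51), CCNB1 (15.6, 8.29), CDK1 (10.8, 5.72), PLK1 (16.8, 10.7), BUB1B (17.3, 8.52), TTK (11.9, 6.02), CDC20 (11.5, 5.13) and ESPL1 (23.96, 10.4). Kinetochore genes were CENPE (30.9, 13.2), CENPI (13.6, 10.2), NDC80 (13.7, 7.34) and NUF2 (11.8, 6.02). Kinesins were KIF11 (26.3, 14.2), KIF14 (5.50, 2.86), KIF15 (11.9, 5.35), KIF18A (5.33, 2.19), KIF20B (19.6, 10.7), KIF2C (7.96, 4.45) and KIF4A (13.95, 7.39). Genes of the spindle, cytokinesis and chromosome structure were TPX2 (78.3, 41.3), RACGAP1 (74.1, 49.96), TOP2A (58.5, 28.3), MKI67 (181, 87.1) and SMC2 (45.96, 21.2).

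The other libraries that stood apart did so in 1 gene each. CCNB2, the cyclin B2 gene, had 0.883 CPM in CON_B 3, against 4.25 to 5.08 CPM in the other controls. SPC24, of the NDC80 complex, had 12.5 CPM in CON_B 5, against 3.06 to 5.07 CPM in the other controls. CENPM, of the inner kinetochore, had 6.24 CPM in LOS 6, against 13.9 to 16.5 CPM in the other LOS libraries, and LOS 6 was the library with no allelic reads for this gene.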

How the results depend on the processing

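DESeq2 1.42.0, limma 3.58.1 voom, other size factors (RLE, upper quartile), no filter or a filter of CPM 1 in 5 libraries, no sex term and dropping assembled loci left 50 to 52 of the 52 genes below 0 and none called; DESeq2 called 5 genes of the table, where edgeR called 0. The 71 genes named kept their sign in 1392 of 1420 gene and setting pairs, and none crossed the threshold. AURKA and MAD2L1 turned to -0.026 and -0.000244 under voom, and AURKA, MAD2L1 and ECT2 to -0.077, -0.22 and 0.015 with a replicate block. With single libraries left out, sign changes came in AURKA from -0.21 to 0.14, MAD2L1 from -0.15 to 0.24, ECT2 from -0.14 to 0.027, CDCA8 from -0.31 to 0.11, INCENP from -0.17 to 0.054, AURKB from -0.20 to 0.019 and NCAPG from -0.32 to 0.030. In the same fits the female median ran from -0.56 (without LOS 1) to 0.21 (without LOS 2) and the male-minus-female median from -0.38 to 0.014. Calls over the table ran from 0 to 2 for females, 3 to 7 for males against females (8 with all libraries) and 0 to 1 for the allelic share, and members away from equal alleles from 1 to 2. Leaving out CON_B 1 or CON_B 2 leaves 1 control female, assumed to vary like the others. Replicate numbers were not treated as pairs in the main fit. Same-numbered deviations correlated from -0.20 to 0.29 over 5 pairs, and 2 of 5 LOS libraries matched their own number best. So few pairs cannot exclude a factor shared by number. With the number as a replicate block 0 genes were called, 51 of the 52 genes were below 0 and the median was -0.51. That group effect comes only from numbers shared by a LOS and a control fetus of the same sex. CON_B 3, LOS 3 and the LOS fetus whose number no control shares do not enter it. The block fit is therefore no check on all libraries. For males against females it gave a median of -0.86, which rests on LOS 3 and CON_B 3, the only same-numbered fetuses of unlike sex. An exact permutation test of the maternal share could hardly call a gene and shows nothing on stability: it would take 186 of 4274 genes at the smallest p that 462 splits allow (0.00216), and 182 had an unadjusted p under 0.05 (0 called, smallest adjusted p 0.925). The female comparison rests on 2 controls, and genes near 1 CPM rest on few reads.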
